A study of Homo sapiens with 9 samples.

Results

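The genes described here are 10 genes of the bone morphogenetic protein (BMP) pathway, chosen by name for their place in it and looked up by Ensembl ID. They are the ligands BMP2, BMP4, BMP6, GDF5 and GDF11, the receptors BMPR1A and BMPR2, the antagonists GREM1 and NOG, and the metalloproteinase BMP1, 10 of 60671 genes in the tables. Their RNA was counted by RNA sequencing in 9 libraries of C28/I2, an established line of human chondrocytes (cartilage cells) made permanent with a viral oncogene. The series asks what carbonic anhydrase 2 (CA2), an enzyme that interconverts carbon dioxide and bicarbonate, does for the metabolism of chondrocytes. The 3 groups, of 3 libraries each, are CA2 shRNA, cells transduced with a short hairpin RNA against CA2, then Scrambled and Control. All 3 are the same line with no other treatment named. What the Scrambled cells carried, and whether Control cells received any construct, is not given in the sources used here. Since no label says that replicates were grown separately, p-values reflect library-to-library spread only, and that spread may be technical. In a pool of cells, fewer cells expressing a gene and less RNA per cell cannot be told apart.

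BMPs are secreted dimers of the transforming growth factor beta superfamily that bind a complex of type I and type II receptor kinases on the cell surface. The type II kinase, such as BMPR2, phosphorylates the type I kinase, such as BMPR1A, which phosphorylates SMAD1, SMAD5 and SMAD9, and these enter the nucleus with SMAD4 to switch on targets such as the ID genes. Antagonists such as gremlin (GREM1) and noggin (NOG) bind the ligands outside the cell, and in cartilage the balance of ligand and antagonist is known to govern joint formation and the hypertrophy of chondrocytes.

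Total counts ran from 16994368 to 34261244 per library. CA2, the gene targeted, had 1.397, 0.905 and 1.097 CPM (counts scaled to the library total, with TMM factors) in CA2 shRNA, against 1.82, 1.96 and 2.06 in Scrambled and 2.31, 2.00 and 1.94 in Control. These levels rest on 15 to 66 counts, and CA2 shRNA libraries lay below all others. The change was -0.77 (SE 0.23, adjusted p = 0.0276) on the log2 scale against Scrambled and -0.86 (SE 0.23, adjusted p = 0.0159) against Control, by edgeR's quasi-likelihood F test adjusted over 19812 genes. The call held in 11 of 17 alternative settings against Scrambled (adjusted p 0.0261 to 0.109) and in 14 of 17 against Control (0.0151 to 0.0759), and was lost without CA2 shRNA 2 or without CA2 shRNA 3 in both. Scrambled 2 and Control 3 stood apart from the other libraries, with 4.08% and 4.06% mitochondrial counts against 5.55% to 6.87% elsewhere. Of 11 chondrocyte markers only SOX9 and MATN3 reached 1 RPKM (reads scaled to the library total and to exon length) on average in any group, COL2A1 stayed at 0.212 to 0.335 RPKM, and COL9A1 was at 0 counts in all 9 libraries. Of 7 fibroblast markers COL1A1 and PDGFRB reached 1 RPKM, and the summed RPKM of immune, endothelial and epithelial markers stayed at or under 1.69. Summed chondrocyte markers were 31.5 to 32.0 RPKM in CA2 shRNA, 28.6 to 29.9 in Scrambled and 27 to 30.4 in Control. SOX9, the master regulator of chondrocytes, carried most of the sum and rose by 0.20 on the log2 scale against both (adjusted p = 0.0364 and 0.0381), while COMP fell by 0.86 and 0.83. Summed fibroblast markers were 178 to 183 RPKM in CA2 shRNA, 183 to 208 in Scrambled and 189.9 to 205 in Control. COL1A1 carried most of that sum, with means of 172.8 RPKM in CA2 shRNA, 183.1 in Scrambled and 188.7 in Control. The part of these markers in the results was not tested.

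Of the 10 genes, BMPR2, GREM1 and BMP4 fell in CA2 shRNA cells against both Scrambled and Control. The mean level in CA2 shRNA was 50.1% of Scrambled and 47.9% of Control for BMPR2, 59.8% and 52.4% for GREM1, and 80.8% and 78.6% for BMP4. None rose, 6 did not pass, and GDF5 had too few counts to be tested. Called means an adjusted p under 0.05 over all genes tested.

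Against Scrambled 16.9% of all tested genes were called, 8.02% as rises and 8.88% as falls, beside 3 falls and 0 rises among 9 tested members. Against Control 14.7% were called, 6.41% as rises and 8.26% as falls, beside the same member counts of 3 and 0. Between Scrambled and Control 0.0% were called, 0 genes by edgeR, with 550 at an unadjusted p under 0.05 and 1 by DESeq2, and 0 members. The median log2 change of the 9 tested members was -0.06 against Scrambled and -0.12 against Control, beside -0.03 and 0.00 over all tested genes. The 2 comparisons share the CA2 shRNA libraries. How many of all tested genes show no overlap between groups was not counted, so separate ranges are given as description only. The counts over all genes shifted with single libraries. Against Scrambled there were 864 rises without Scrambled 3 and 906 without CA2 shRNA 2, while leaving out CA2 shRNA 1 gave 1129 falls and leaving out CA2 shRNA 3 gave 1164. The total called was 3348 with all libraries and 2059 without Scrambled 3. Against Control there were 686 rises without Control 2, 663 without CA2 shRNA 2 and 2030 without Scrambled 2, against 1269 with all libraries, and 1063 falls without CA2 shRNA 1, against 1637.

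**Figure D1:**
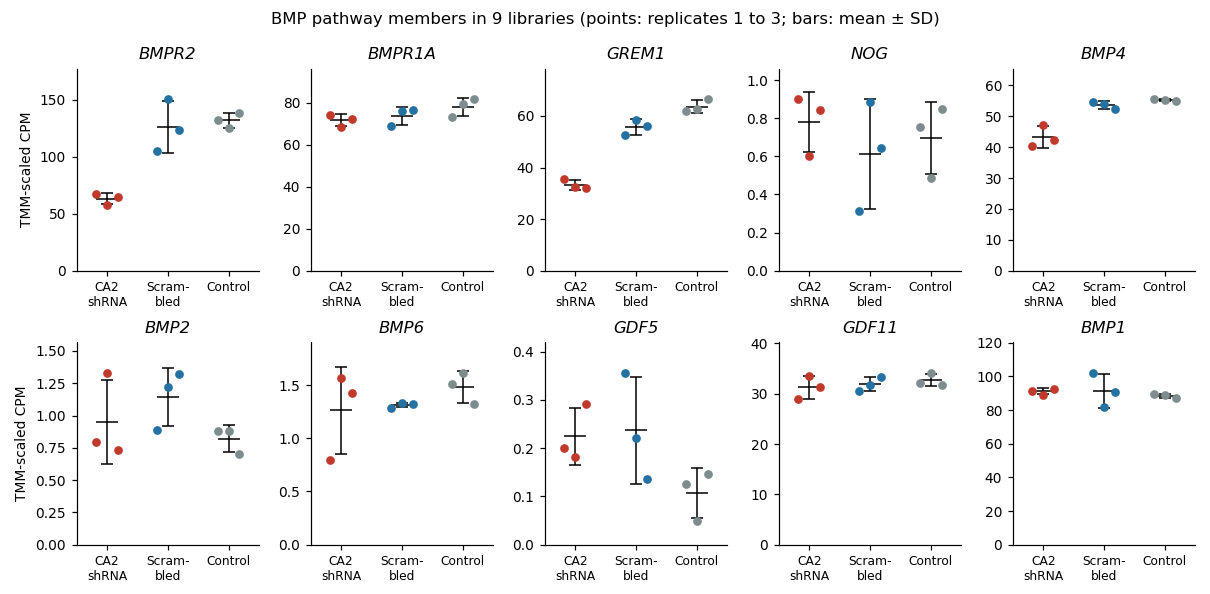
TMM-scaled CPM of each of the 10 genes in every library, with CA2 shRNA, Scrambled and Control side by side; points are libraries, bars the mean ± SD (n = 3), and each panel has its own axis from 0. BMPR2, GREM1 and BMP4 sit lower in all 3 CA2 shRNA libraries than in any other, while the remaining panels overlap between CA2 shRNA and Scrambled. The share of all genes that separate in this way was not counted.

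**Figure D2:**
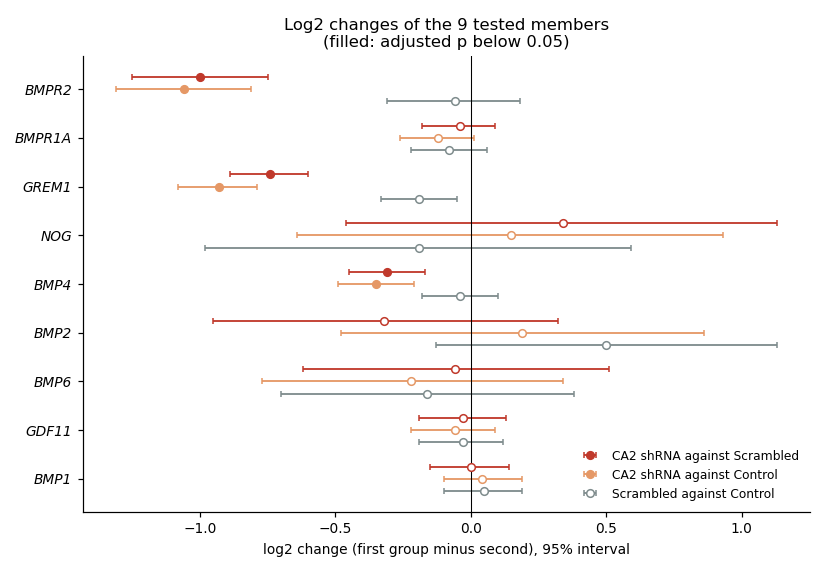
Log2 change with its 95% interval for the 9 tested genes in each comparison, first-named group minus second, filled where the adjusted p is under 0.05. The filled points are BMPR2, GREM1 and BMP4 in both CA2 shRNA comparisons, and the intervals of NOG, BMP2 and BMP6 are the widest.

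The start regions of the 3 genes that fell are shown because each was called as a fall in both CA2 shRNA comparisons. Each is 300 bases of RefSeq sequence on GRCh38.p14, 250 before and 50 after the transcription start, written 5′ to 3′ along the gene. BMPR2 lies at chr2:202376077-202376376 on the plus strand, the first GREM1 start at chr15:32717754-32718053 on the plus strand, and the first BMP4 start at chr14:53955001-53955300 on the minus strand. Capitals mark GGCGCC, a GC-rich run that reads the same on both strands and that SMAD1 and SMAD5 are known to bind.
BMPR2: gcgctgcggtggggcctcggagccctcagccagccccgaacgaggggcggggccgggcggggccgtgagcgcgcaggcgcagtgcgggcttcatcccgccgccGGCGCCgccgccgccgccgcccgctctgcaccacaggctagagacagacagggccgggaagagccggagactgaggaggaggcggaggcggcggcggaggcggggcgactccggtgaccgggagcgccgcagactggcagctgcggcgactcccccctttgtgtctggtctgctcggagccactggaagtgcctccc
GREM1: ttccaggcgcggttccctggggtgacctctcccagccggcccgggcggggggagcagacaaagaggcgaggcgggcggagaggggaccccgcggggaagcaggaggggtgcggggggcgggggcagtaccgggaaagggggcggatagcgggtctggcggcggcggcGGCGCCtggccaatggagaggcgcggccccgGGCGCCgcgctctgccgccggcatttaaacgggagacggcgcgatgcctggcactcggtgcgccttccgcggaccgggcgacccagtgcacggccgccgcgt
BMP4: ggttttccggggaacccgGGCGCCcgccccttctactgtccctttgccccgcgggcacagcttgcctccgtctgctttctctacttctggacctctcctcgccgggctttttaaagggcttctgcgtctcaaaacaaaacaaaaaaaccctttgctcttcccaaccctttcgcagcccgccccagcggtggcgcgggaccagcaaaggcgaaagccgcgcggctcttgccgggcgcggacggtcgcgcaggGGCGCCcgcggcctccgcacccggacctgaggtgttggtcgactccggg
BMPR2 held 1 GGCGCC, with its first base at -147 from the start. GREM1 held 2, at -83 and -52, and BMP4 held 2, at -232 and 2. The other GREM1 start, the other 2 BMP4 starts and the single listed starts of BMP6, BMPR1A, GDF11 and GDF5 held 0. The BMPR1A region, chr10:86755513-86755812, lies wholly before the first counted base of that gene, at 86756601. Its letters may therefore not be those of the start in use, which was not measured. G and C made up 76.7% of the BMPR2 region, 77.0% of the first GREM1 region and 66.0% of the first BMP4 region. They made up 66.0% for BMP6, 70.0% for GDF11, 50.3% for BMPR1A and 49.3% for GDF5, whose change was not tested. The part of base composition in these matches was not tested. Of 35116 listed human start regions of this length 19.2% held it. That share is over regions of any base composition, and the number of starts per gene was not allowed for. Start regions of 7 of the 10 genes were read: BMP2 and NOG had no entry, and BMP1 was left out of the search. The match is a description of these letters, and binding was not measured.

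The ends of the transcripts were also searched, for the heptamers ACACCAA and CACCAAA, which overlap as the octamer ACACCAAA. An earlier analysis of these data picked these letters because falling genes often held them. Their counts here, and the shares of falling genes with and without them at any length, are therefore no independent evidence. The longest 3′ untranslated region (UTR) annotated in GENCODE 29 on GRCh38 was read on the sense strand only. GREM1 held 4 separate matches in 13862 bases, BMPR2 held 1 in 8049 bases, and BMP4 held 0 in 368 bases. BMPR1A, which did not pass, held 1 octamer in 9119 bases. The windows below are on the plus strand, with the match in capitals. The GREM1 windows are chr15:32732092-32732121, chr15:32733785-32733814, chr15:32739717-32739745 and chr15:32740180-32740208 in that order, the BMPR2 window is chr2:202561636-202561664 and the BMPR1A window chr10:86927796-86927825.
GREM1, window 1: gctcaaacctaACACCAAActgaaaacata
GREM1, window 2: aataatgccaaACACCAAAtatgaatttta
GREM1, window 3: aaaaccagactCACCAAAgctggtagaga
GREM1, window 4: ctaatgtgcagACACCAAcacaaagagtc
BMPR2: aaaacacaaatCACCAAAtttctgattta
BMPR1A: gcagttgtaaaACACCAAAaatatagattc
GREM1 windows 1 and 2, like that of BMPR1A, hold the octamer, and the remaining windows hold 1 heptamer each. GDF11, which did not pass, held 3 heptamers in 7396 bases, and BMP6 and BMP1, which did not pass either, held 1 each. NOG, BMP2 and GDF5 held 0. Among 13967 tested genes with a searched 3′ UTR, 18.7% held either heptamer. Of these 26.7% fell and 5.24% rose against Scrambled (median log2 change -0.13). Among genes with neither, 7.05% fell and 12.6% rose (median 0.04). The octamer was held by 4.23%, of which 42.3% fell. Where the 3′ UTR was at least 5000 bases long, as in GREM1, BMPR2, BMPR1A and GDF11, 23.3% of genes with a heptamer fell and 9.19% of those without. The sequence of the hairpin is not given in the sources used here, and the part of these letters in any change was not tested.

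**Figure D3:**
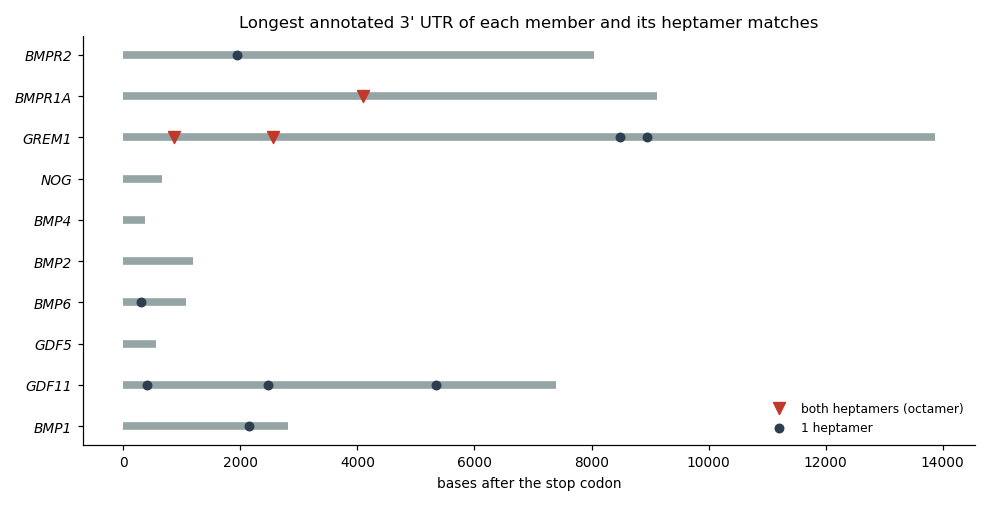
Length of the longest annotated 3′ UTR of each of the 10 genes, in bases after the stop codon, with positions of the octamer (triangles) and of single heptamers (circles). GREM1 has 2 octamers and 2 single heptamers in 13862 bases, while the 3′ UTRs of NOG, BMP4, BMP2 and GDF5 are short and hold none.

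Of the 5 ligands, BMP4 fell, 3 did not pass and 1 was not tested. BMP4 (ENSG00000125378, chr14:53949736-53958761, GRCh38, minus strand), which signals through BMPR1A and BMPR2 and drives cartilage and bone differentiation, had 40.5, 47.1 and 42.3 CPM in CA2 shRNA, against 54.6, 53.9 and 52.3 in Scrambled and 55.4, 55.1 and 54.8 in Control. All 3 CA2 shRNA libraries lay below the other 6, and the 6 lay close together. The means were 43.3 ± 3.44 CPM in CA2 shRNA, 53.6 ± 1.19 in Scrambled and 55.1 ± 0.308 in Control (SD, n = 3 each). The log2 change of BMP4 was -0.31 against Scrambled (SE 0.07, 95% interval -0.45 to -0.17, adjusted p = 0.00343) and -0.35 against Control (SE 0.07, adjusted p = 0.00128). The call against Scrambled rested on CA2 shRNA 1, the lowest library: without it the change was -0.23 with an adjusted p of 0.0541, while 16 of 17 alternatives kept the call and all 17 kept it against Control. An unnamed gene on the opposite strand shares 16.3% of the BMP4 exon bases and had 1.30 to 3.78 CPM. The strand setting of the counting is not given, so reads in that stretch cannot be assigned.

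GDF11 (ENSG00000135414, chr12:55743122-55757264), a close relative of myostatin that signals through activin type II receptors, had 28.95, 33.6 and 31.3 CPM in CA2 shRNA, against 30.6, 31.7 and 33.4 in Scrambled and 32.1, 34.04 and 31.8 in Control. The 3 groups overlapped throughout. The log2 change was -0.03 against Scrambled (95% interval -0.19 to 0.13) and -0.06 against Control (-0.22 to 0.09).

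BMP2, BMP6 and GDF5 were close to the floor of the measurement. BMP2 (ENSG00000125845, chr20:6767686-6780246), a ligand that induces cartilage and bone, had 16, 22 and 20 counts in CA2 shRNA, 20, 33 and 39 in Scrambled and 21, 18 and 24 in Control. That is 0.799, 1.33 and 0.731 CPM in CA2 shRNA, against 0.888, 1.22 and 1.32 in Scrambled and 0.882, 0.878 and 0.704 in Control. The Scrambled libraries lay above the Control libraries by the narrowest of margins, and CA2 shRNA overlapped both. The log2 change was -0.32 against Scrambled (95% interval -0.95 to 0.32, adjusted p = 0.543) and 0.19 against Control (-0.48 to 0.86, adjusted p = 0.78). Scrambled against Control gave 0.50 (-0.13 to 1.13), with an adjusted p of 1.

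BMP6 (ENSG00000153162, chr6:7726099-7881728), a ligand made by hypertrophic chondrocytes, had 0.799, 1.57 and 1.43 CPM in CA2 shRNA, against 1.29, 1.33 and 1.32 in Scrambled and 1.51, 1.61 and 1.32 in Control. CA2 shRNA 1 held the lowest value of the 9, and the other CA2 shRNA libraries lay above the Scrambled libraries and within the range of Control. The log2 change was -0.06 against Scrambled (95% interval -0.62 to 0.51) and -0.22 against Control (-0.77 to 0.34), and without CA2 shRNA 1 these became 0.21 and 0.05. Its exons share 5.60% of their bases with TXNDC5 on the opposite strand. GDF5 (ENSG00000125965, chr20:35433347-35454746, minus strand), the ligand known for shaping joints, had 4, 3 and 8 counts in CA2 shRNA, 8, 6 and 4 in Scrambled and 3, 1 and 5 in Control. It was left out by the filter on low counts, and no change could be told at this depth. Its antisense neighbour GDF5-AS1 shares 35.4% of its exon bases.

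The receptors parted: BMPR2 fell and BMPR1A did not pass. BMPR2 (ENSG00000204217, chr2:202376327-202567751), the type II receptor with a long tail inside the cell, had 67.1, 58.0 and 64.3 CPM in CA2 shRNA, against 105, 150.2 and 124 in Scrambled and 132, 125.5 and 138 in Control. The lowest of the other 6 libraries, Scrambled 1, lay well above the highest CA2 shRNA library, and the Scrambled libraries were the most spread. The means were 63.1 ± 4.67 CPM in CA2 shRNA, 126 ± 22.9 in Scrambled and 132 ± 6.28 in Control (SD, n = 3 each). Against Scrambled, BMPR2 had a log2 change of -1.0 (SE 0.11, 95% interval -1.25 to -0.75, adjusted p = 0.000142). Against Control the change was -1.06 (SE 0.11, -1.31 to -0.81, adjusted p = 9.18e-05). Both calls held in 17 of 17 alternatives, which ran from -1.12 to -0.83 against Scrambled and from -1.11 to -1.0 against Control.

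Scrambled 2 and Control 3, the libraries that stand apart, held the highest BMPR2 of their groups. Without both, BMPR2 changed by -0.83 against Scrambled (adjusted p = 2.02e-09) and by -1.0 against Control (adjusted p = 5.38e-11). Between Scrambled and Control it differed by -0.06 (95% interval -0.31 to 0.18), with groups that overlapped. No other annotated gene shares its exons.

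BMPR1A (ENSG00000107779, chr10:86756601-86932825), the type I receptor that BMP2 and BMP4 engage, had 74.0, 68.4 and 72.1 CPM in CA2 shRNA, against 68.8, 75.8 and 76.5 in Scrambled and 73.1, 79.2 and 81.5 in Control. The 3 groups overlapped. The change was -0.04 (95% interval -0.18 to 0.09) against Scrambled and -0.12 (-0.26 to 0.01) against Control, with adjusted p values of 0.719 and 0.247. These intervals lie above those of BMPR2.

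The ratio of BMPR2 to BMPR1A in RPKM was 0.690, 0.645 and 0.679 in CA2 shRNA, against 1.16, 1.51 and 1.23 in Scrambled and 1.37, 1.21 and 1.29 in Control. On this scale, which divides by the annotated exon length, BMPR2 was thus the lower of the receptors in every CA2 shRNA library and the higher in every other library. The mean ratio was 0.671 ± 0.0234 in CA2 shRNA, 1.30 ± 0.185 in Scrambled and 1.29 ± 0.0839 in Control.

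Of the antagonists, GREM1 fell and NOG was barely detected. GREM1 (ENSG00000166923, chr15:32718004-32745106), which binds BMP2 and BMP4 and is known in human articular cartilage as a natural brake on hypertrophy, had 35.6, 32.4 and 31.9 CPM in CA2 shRNA, against 52.6, 58.6 and 56.0 in Scrambled and 61.8, 62.6 and 66.4 in Control. The 3 groups lay in 3 separate ranges. The means were 33.3 ± 2.04 CPM in CA2 shRNA, 55.7 ± 2.97 in Scrambled and 63.6 ± 2.46 in Control (SD, n = 3 each). Against Scrambled, GREM1 had a log2 change of -0.74 (SE 0.07, 95% interval -0.89 to -0.60, adjusted p = 6.56e-07). Against Control it changed by -0.93 (SE 0.07, -1.08 to -0.79, adjusted p = 4.08e-08). Both calls held in 17 of 17 alternatives, from -0.79 to -0.68 against Scrambled and from -0.96 to -0.87 against Control. The log2 change of Scrambled against Control was -0.19 (95% interval -0.33 to -0.05), a difference with an unadjusted p of 0.011 in the edgeR fit that did not survive adjustment over all genes (adjusted p = 1). GREM1-AS1 on the opposite strand shares 2.48% of the exon bases and had 0.411 to 1.05 CPM.

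GREM1 per unit of its ligand BMP4, in RPKM, was 0.184, 0.144 and 0.158 in CA2 shRNA, against 0.202, 0.228 and 0.224 in Scrambled and 0.234, 0.238 and 0.254 in Control. The CA2 shRNA libraries were again the lowest, so the antagonist was lower relative to BMP4 as well as on its own scale. The mean ratio was 0.162 ± 0.0205 in CA2 shRNA, 0.218 ± 0.0140 in Scrambled and 0.242 ± 0.0106 in Control.

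NOG (ENSG00000183691, chr17:56593699-56595611), the antagonist that keeps forming joints free of BMP signal, had 18, 10 and 23 counts in CA2 shRNA, 7, 24 and 19 in Scrambled and 18, 10 and 29 in Control. Its levels were 0.781 ± 0.156 CPM in CA2 shRNA, 0.613 ± 0.289 in Scrambled and 0.698 ± 0.188 in Control, and the groups overlapped. The change was 0.34 (95% interval -0.46 to 1.13) against Scrambled and 0.15 (-0.64 to 0.93) against Control, intervals that are over 1 log2 unit wide.

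BMP1 (ENSG00000168487, chr8:22165140-22212326, plus strand), despite its name no ligand, is a secreted metalloproteinase that cuts the C-terminal propeptide from procollagens and frees BMPs by cutting chordin. It had 91.5, 89.2 and 92.6 CPM in CA2 shRNA, against 102, 81.8 and 90.7 in Scrambled and 89.5, 88.7 and 86.9 in Control. The Scrambled libraries spanned all the others. The change was 0.00 (95% interval -0.15 to 0.14) against Scrambled and 0.04 (-0.10 to 0.19) against Control. With an SE of 0.07, close to those of BMP4 and GREM1, the intervals lie above the estimates for both of these genes.

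Per exon length, the order of the 10 genes differed between CA2 shRNA and both other groups at BMPR2 and GREM1, and among all 3 groups at the low genes NOG, BMP6 and BMP2. BMP4 was the highest in every group, at 13.9 ± 0.867 RPKM in CA2 shRNA, 17.4 ± 0.458 in Scrambled and 17.7 ± 0.204 in Control. BMP1 came next, at 12.85 RPKM in CA2 shRNA, 13.0 in Scrambled and 12.5 in Control. BMP4 and BMP1 overlapped in CA2 shRNA and did not overlap in Scrambled or Control. In CA2 shRNA cells BMPR1A followed at 7.49 RPKM, then BMPR2 at 5.03, GDF11 at 3.54 and GREM1 at 2.25, with no overlap between neighbours. In Scrambled the order was BMPR2 at 10.1 RPKM, which overlapped BMP1, BMPR1A at 7.76, GREM1 at 3.78 and GDF11 at 3.63, and the last pair overlapped. In Control it was BMPR2 at 10.5, BMPR1A at 8.15, GREM1 at 4.28 and GDF11 at 3.70, with no overlap between neighbours. The low genes lay at 0.267 to 0.408 RPKM in CA2 shRNA, 0.321 to 0.348 in Scrambled and 0.231 to 0.390 in Control, and GDF5 was last in each group. From high to low they ran NOG, BMP6, BMP2 in CA2 shRNA, BMP6, BMP2, NOG in Scrambled and BMP6, NOG, BMP2 in Control. Neighbours among these overlapped, except that BMP2 lay below NOG with no overlap in Control. In every group they lay below GDF11 and GREM1 and above GDF5 with no overlap between neighbours in the order. The ratio of GREM1 to GDF11 was 0.733, 0.575 and 0.607 in CA2 shRNA, against 1.02, 1.10 and 0.998 in Scrambled and 1.15, 1.09 and 1.24 in Control.

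**Figure D4:**
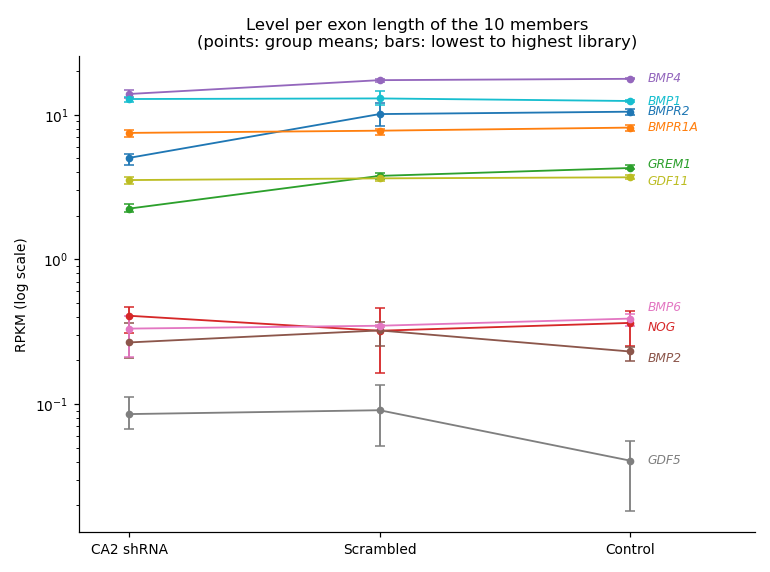
RPKM of the 10 genes on a log axis for CA2 shRNA, Scrambled and Control; points are group means, bars span the lowest to the highest library, and lines join the means of 1 gene. The line of BMPR2 crosses that of BMPR1A, and GREM1 crosses GDF11, between CA2 shRNA and the other groups.

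The tested protein-coding genes with a mean of at least 2 CPM numbered 12148, BMPR2 and GREM1 included. Those whose log2 CPM ran closest to BMPR2 over the 9 libraries were PBRM1 (Pearson's r = 0.999), SETD7 (0.997) and CLOCK (0.997). PBRM1 encodes a chromatin remodelling subunit and had 90.7 CPM in CA2 shRNA, 142 in Scrambled and 147 in Control. SETD7 encodes a lysine methyltransferase and had 85.6 CPM in CA2 shRNA, 124 in Scrambled and 130 in Control. CLOCK encodes a circadian transcription factor and had 19.4 CPM in CA2 shRNA, 40.2 in Scrambled and 42.2 in Control. For GREM1 the closest were RNF111 (0.989), a ubiquitin ligase of the transforming growth factor beta pathway, AEBP2 (0.988) and TSPAN6 (0.988). RNF111 had 61.7 CPM in CA2 shRNA, 86.6 in Scrambled and 89.6 in Control. These correlations describe libraries that share the group difference and their depth, and the genes were picked for them.

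The rest of the pathway is given as lists by role, without the 10 genes. Over all tested genes, 16.9% were called against Scrambled (8.02% rises, 8.88% falls) and 14.7% against Control (6.41% and 8.26%). No list was tested as a set. Among 16 other BMP and GDF ligands 7 were tested. Of these 0 rose, 2 fell and 5 did not pass in either CA2 shRNA comparison, with a median log2 change of -0.14 against Scrambled and -0.37 against Control. BMP5, a ligand known from mouse skeletal development, had 0.764 CPM in CA2 shRNA, 1.68 in Scrambled and 1.89 in Control, with a log2 change of -1.15 against Scrambled (adjusted p = 0.0111) and of -1.33 against Control (adjusted p = 0.00391). Without CA2 shRNA 1 its adjusted p against Scrambled was 0.0708. GDF7, a relative of GDF5, had 2.08 CPM in CA2 shRNA, 4.35 in Scrambled and 4.48 in Control, and fell by 1.07 (adjusted p = 0.000361) and by 1.12 (adjusted p = 0.000242). Neither reached 1 RPKM. BMP7, the most abundant of the list, had 75.1, 83.8 and 74.4 CPM in CA2 shRNA, against 88.0, 86.0 and 82.2 in Scrambled and 85.4, 85.4 and 86.5 in Control, and did not pass (-0.14 in both, adjusted p 0.145 and 0.138). It was singled out for its level after the values were seen.

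Of 12 other receptors and co-receptors 11 were tested, with 2 rises, 1 fall and 8 not passing against Scrambled and 2, 2 and 7 against Control. The list median was 0.14 against Scrambled and 0.13 against Control. TGFBR3 (betaglycan), a co-receptor that presents superfamily ligands, had 9.23, 9.90 and 10.5 CPM in CA2 shRNA, against 5.33, 5.83 and 4.53 in Scrambled and 6.13, 5.51 and 5.10 in Control. The CA2 shRNA libraries lay above all others, while Scrambled and Control overlapped, and TGFBR3 rose by 0.92 on the log2 scale against Scrambled (adjusted p = 6.88e-05) and by 0.83 against Control (adjusted p = 0.000199). ACVR2B, an activin type II receptor that also serves GDF11 and BMPs, had 27.4 CPM in CA2 shRNA, 19.2 in Scrambled and 20.4 in Control. It rose by 0.52 (adjusted p = 0.00343) and 0.43 (adjusted p = 0.0133), the call against Control being lost without Control 2 (adjusted p = 0.0861), CA2 shRNA 2 (0.0698) or CA2 shRNA 3 (0.0564). ENG (endoglin), a co-receptor, had 117 CPM in CA2 shRNA, 141 in Scrambled and 150.5 in Control, and changed by -0.27 (adjusted p = 0.00166) and -0.37 (adjusted p = 9.76e-05). BAMBI, a decoy receptor with no kinase and itself a BMP target, changed by -0.53 against Control (adjusted p = 0.00516, 0.0607 without CA2 shRNA 3) and had -0.27 against Scrambled (adjusted p = 0.148).

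Of 18 other antagonists and extracellular modulators 12 were tested, with 1 rise, 4 falls and 7 not passing against Scrambled and 0, 4 and 8 against Control. The list median was -0.35 and -0.26. FSTL1, a secreted follistatin-like protein known to bind BMP4 in mouse, averaged 144 CPM in CA2 shRNA, 284 in Scrambled and 295 in Control. Its CA2 shRNA libraries lay below all others, a change of -0.98 on the log2 scale (SE 0.06, adjusted p = 2.45e-09) against Scrambled and -1.03 (SE 0.06, adjusted p = 1.13e-09) against Control. CHRD (chordin), the BMP trap that BMP1 cuts, had 12.5 CPM in CA2 shRNA, 17.3 in Scrambled and 16.5 in Control, and changed by -0.47 (adjusted p = 0.0063) and -0.40 (adjusted p = 0.0192). Its call against Control was lost without Control 1 (adjusted p = 0.0883), CA2 shRNA 1 (0.101) or CA2 shRNA 3 (0.102). CRIM1, a membrane protein that binds BMPs inside the cell and at its surface, had 233 CPM in CA2 shRNA, 307 in Scrambled and 315 in Control, and changed by -0.40 (adjusted p = 6.33e-05) and -0.44 (adjusted p = 2.61e-05). FSTL3, which binds activin and myostatin, changed by -0.21 against Scrambled (adjusted p = 0.0489), a call kept in 6 of 17 alternatives, and by -0.27 against Control (adjusted p = 0.0159), kept in 13 of 17. NBL1 (DAN), an antagonist of the gremlin family, rose by 0.28 against Scrambled (adjusted p = 0.0144, 0.0917 without Scrambled 3 and 0.0718 without CA2 shRNA 2) and had 0.20 against Control (adjusted p = 0.0806).

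All 18 SMADs and intracellular regulators were tested, with 3 rises, 3 falls and 12 not passing against Scrambled and 2, 3 and 13 against Control, and a median of 0.02 and 0.01. SMAD4, the shared partner of the receptor-activated SMADs, had 52.3, 48.3 and 49.5 CPM in CA2 shRNA, against 56.1, 66.1 and 64.0 in Scrambled and 65.7, 65.2 and 71.5 in Control. The CA2 shRNA libraries lay below all others, while Scrambled and Control overlapped, and SMAD4 changed by -0.31 on the log2 scale (adjusted p = 0.00549) and -0.43 (adjusted p = 0.000356). SMAD9, a BMP-activated SMAD that is also a target of the pathway, had 28.7 CPM in CA2 shRNA, 37.7 in Scrambled and 40.0 in Control, and changed by -0.40 (adjusted p = 0.00346) and -0.48 (adjusted p = 0.000704). The other BMP-activated SMADs did not pass: SMAD1 was at 0.16 and -0.02, and SMAD5 at 0.10 and -0.05, on the log2 scale. SKI, a repressor of SMAD transcription, rose by 0.25 against Scrambled (adjusted p = 0.00346) and by 0.18 against Control (adjusted p = 0.0272), and the call against Control was kept in 13 of 17 alternatives. Its relative SKIL changed by -0.35 (adjusted p = 0.0491) and -0.44 (adjusted p = 0.0192), kept in 6 and 14 of 17, and its CA2 shRNA and Scrambled libraries overlapped. USP15, a deubiquitinase of SMADs and their receptors, rose by 0.41 against Scrambled (adjusted p = 0.0188, 0.0589 without Scrambled 1 and 0.0511 without CA2 shRNA 1) and had 0.20 against Control (adjusted p = 0.282). CTDSP1, a SMAD phosphatase, rose by 0.20 (adjusted p = 0.0307) and 0.25 (adjusted p = 0.00893), kept in 13 and 15 of 17, and was named after its values were seen.

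Of 16 BMP target genes 15 were tested, with 1 rise, 5 falls and 9 not passing against Scrambled and 1, 6 and 8 against Control. The median was -0.11 against Scrambled and -0.05 against Control. ID3, an inhibitor of differentiation and a direct SMAD target, had 103, 100.4 and 91.6 CPM in CA2 shRNA, against 136, 125 and 121 in Scrambled and 136, 139 and 134 in Control. The CA2 shRNA libraries were the lowest 3 of the 9, and ID3 changed by -0.37 (SE 0.06, adjusted p = 0.000361) and -0.47 (SE 0.06, adjusted p = 2.89e-05). Its close relative ID1 averaged 106 CPM in CA2 shRNA, 127 in Scrambled and 128 in Control, with no overlap between CA2 shRNA and either group. ID1 changed by -0.26 (SE 0.05, adjusted p = 0.0026) and -0.28 (SE 0.05, adjusted p = 0.0016), held in 17 of 17 alternatives, and was named after its values were seen. ID2 did not pass, at -0.03 and -0.01. The homeobox gene DLX2 had 21.1 CPM in CA2 shRNA, 35.6 in Scrambled and 36.2 in Control, and changed by -0.75 (adjusted p = 8.18e-07) and -0.78 (adjusted p = 5.76e-07). ATOH8, a helix-loop-helix factor known from mouse cartilage, had 16.1 CPM in CA2 shRNA, 24.0 in Scrambled and 25.1 in Control, and changed by -0.58 (adjusted p = 0.000135) and -0.65 (adjusted p = 4.11e-05). DLX3, another homeobox gene, went the other way, with 12.4 CPM in CA2 shRNA, 9.14 in Scrambled and 8.72 in Control, and rose by 0.44 (adjusted p = 0.0109) and 0.50 (adjusted p = 0.00478). Its adjusted p against Scrambled was 0.0544 without Scrambled 3 and 0.0783 without CA2 shRNA 2. SMAD9 and BAMBI, given with the SMADs and receptors, are also counted here. SMAD6 and SMAD7, the inhibitory SMADs that BMPs induce, did not pass, at 0.02 and 0.03 and at -0.21 in both comparisons (SMAD7 adjusted p 0.0565 and 0.0628).

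All 8 relatives and enhancers of BMP1 and proprotein convertases were tested, with 0 rises, 2 falls and 6 not passing against Scrambled and 0, 1 and 7 against Control (median -0.09 in both). FURIN, the convertase that cuts BMP precursors, BMP4 among them, to their active form, had 171, 175 and 166 CPM in CA2 shRNA, against 301, 287 and 279.9 in Scrambled and 293, 304 and 305 in Control. The CA2 shRNA libraries lay far below all others, while Scrambled and Control overlapped, a change of -0.76 on the log2 scale (SE 0.05, adjusted p = 1.71e-08) against Scrambled and -0.82 (SE 0.05, adjusted p = 6.99e-09) against Control. PCOLCE, which speeds the cutting of procollagen by BMP1, changed by -0.34 against Scrambled (adjusted p = 0.0348, kept in 11 of 17 alternatives) and had -0.23 against Control (adjusted p = 0.169). TLL1, the nearest relative of BMP1, did not pass (-0.23 and -0.38, adjusted p 0.303 and 0.0759).

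Of 14 procollagens and other substrates of BMP1 12 were tested, with 1 rise, 2 falls and 9 not passing against Scrambled and 0, 2 and 10 against Control (median -0.12 and -0.16). COL5A1, a chain of the collagen that nucleates fibrils, had 537, 490.0 and 519 CPM in CA2 shRNA, against 899, 797 and 871 in Scrambled and 823, 896 and 846 in Control. It changed by -0.73 on the log2 scale in both comparisons (SE 0.06, adjusted p = 1.24e-07 and 1.14e-07). COL5A2, its partner chain, rose by 0.17 against Scrambled (adjusted p = 0.031, kept in 12 of 17 alternatives) and had 0.15 against Control (adjusted p = 0.0617). COL3A1, a fibrillar collagen chain and also one of the fibroblast markers, had 2.18 CPM in CA2 shRNA, 4.04 in Scrambled and 3.97 in Control, and changed by -0.88 (adjusted p = 0.00136) and -0.85 (adjusted p = 0.00178). COL1A1, the most abundant of the list, had 1562 CPM in CA2 shRNA, 1645 in Scrambled and 1707 in Control and did not pass (adjusted p 0.431 and 0.163). It too was singled out for its level. Scrambled against Control gave 0 calls in every list.

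**Figure D5:**
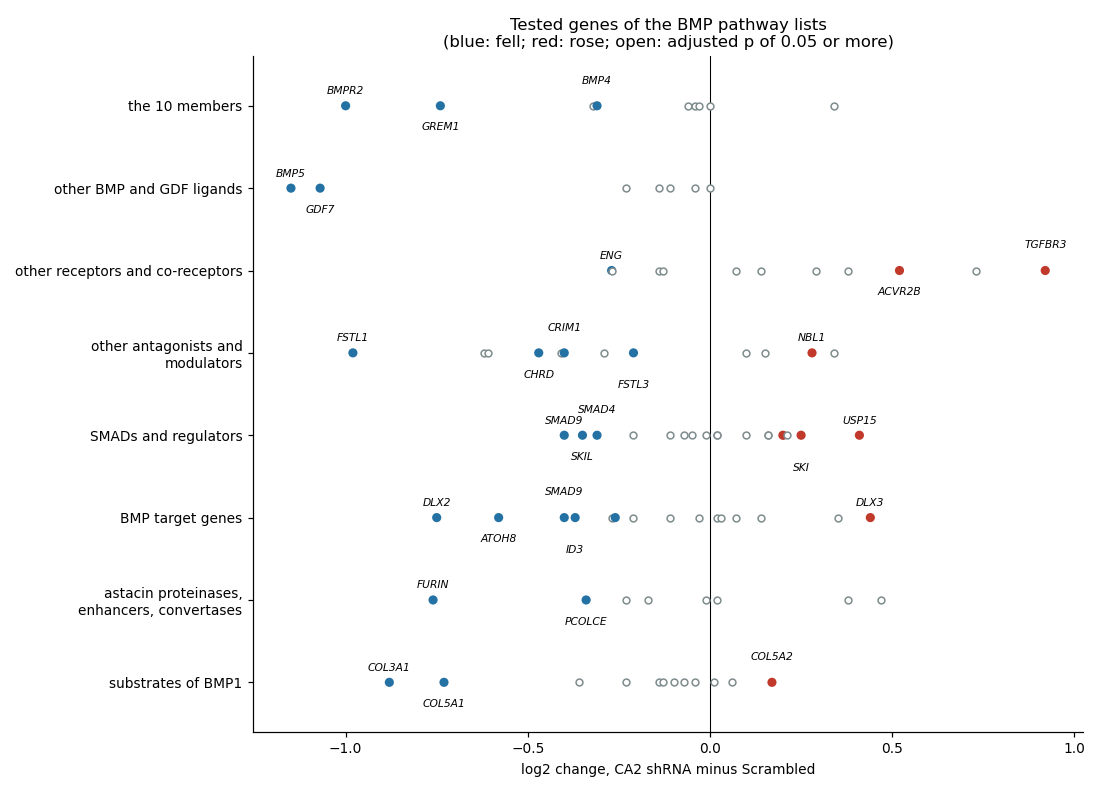
Log2 change of CA2 shRNA minus Scrambled for each tested gene of the 10 and of the 7 pathway lists, 1 row per list, with falls in blue, rises in red and open circles for genes that did not pass. FSTL1 (-0.98), COL3A1 (-0.88), FURIN (-0.76) and DLX2 (-0.75) lie between BMPR2 (-1.0) and GREM1 (-0.74), and COL5A1 (-0.73) lies next to GREM1. BMP5 (-1.15) and GDF7 (-1.07) fell further than BMPR2, while the SMAD row is centred near 0.02.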

How the data were processed

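Total RNA (RNeasy, with ribosomal RNA removal by FastSelect, per the labels' protocols) was sequenced from 9 libraries. The submitters' processing notes name STAR 2.5.1a, bcl2fastq, Subread with featureCounts 1.4.6-p5, and GRCh38. The annotation release, strand setting, read layout and handling of multi-mapping reads: not given in the sources used here. The authors deposited, per the file headers, a raw count, a CPM and an RPKM for each of 60671 genes in each library. The deposited CPM is the count scaled to the library total and the deposited RPKM divides it by exon length in kilobases, as recomputing them showed. All tests started from the deposited counts.

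Genes passing edgeR's filterByExpr by group (19812) were scaled with TMM factors and tested with edgeR 4.0.16 (R 4.3.3), quasi-likelihood F test with robust fitting, all 9 libraries in 1 fit with a term per group (6 residual degrees of freedom), with Benjamini-Hochberg adjustment over all tested genes and a threshold of 0.05. The biological coefficient of variation was 7.94%. Levels are TMM-scaled CPM, mean ± SD over 3 libraries. Genes were compared with each other in RPKM. Their order and ratios depend on the annotated exon lengths, and which transcript ends these cells use was not measured. The fit was checked on simulated data for CA2 shRNA against Scrambled, with 50 genes changed at each size. It recovered 74% of log2 changes of -1, 72% of 1, 48% of -0.5 and 50% of 0.5. Of the genes called there, 6.15% were false. The changed genes were drawn at random from tested genes of any level, so these shares are not the recovery at the level of a given member. Not passing alone does not show that a gene was unchanged, and the intervals give the range of each change. With 3 libraries a side, exact permutation gives no p under 0.10 and was not used. Totals of 16994368 to 34261244 counts limit precision for genes near 1 CPM, and intervals cover the spread between these libraries. No 2 libraries of a group agreed within sampling noise (chi-square per gene 4.64 to 19.6).

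Gene locations and 3′ UTRs came from GENCODE 29 (GRCh38), start regions from RefSeq (GRCh38.p14). The text names the 10 genes, CA2, up to 5 members per list that passed in either CA2 shRNA comparison, by size of change against Scrambled (otherwise the 2 most abundant, which concerns immune, endothelial and epithelial markers, given as sums), and the 3 genes most like BMPR2 and GREM1. Named outside this rule, with their values known, were BMP7, CTDSP1, ID1, ID2, SMAD1, SMAD5, SMAD6, SMAD7, TLL1 and COL1A1, and the markers MATN3, COL2A1, COL9A1 and PDGFRB. The genes and lists were chosen with earlier results of these data known. Alternatives were DESeq2 size factors, no filter, at least 1 CPM in 3 libraries as the filter, library totals as the scale, DESeq2 1.42.0, the replicate number as a block, only the 2 groups compared, each library left out, and Control 3 and Scrambled 2 left out together.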

Additional observations from a re-analysis of the deposited data

How the results depend on the processing

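Calls of BMPR2, GREM1 and BMP4 held in all 17 alternatives in both CA2 shRNA comparisons, except BMP4 against Scrambled without CA2 shRNA 1 (-0.23, adjusted p = 0.0541). The members called numbered 2 to 3 against Scrambled when single libraries were left out, and 3 against Control. Genes called against Scrambled numbered 2059 to 4011 with single libraries left out, against 3348. Their split was 1589 rises and 1759 falls, against 1810 and 1596 with DESeq2 size factors and 1893 and 1427 with DESeq2. Between Scrambled and Control, 7 genes were called with no filter, 1 with DESeq2 and 0 to 1 with single libraries left out. Same-numbered libraries of different groups correlated from -0.367 to 0.303 in their deviations from the group means. Control 3 and Scrambled 2, which stand apart, correlated at 0.575 and weigh on these deviations. The correlations therefore cannot exclude a pairing, and the labels state none. With the replicate block 3422, 2946 and 0 genes and 3, 3 and 0 members were called, and no member's call changed. Signs turned for uncalled members. Against Scrambled, BMP1 was at 0.02 with DESeq2 size factors and with DESeq2, 0.01 with at least 1 CPM, and 0.00 with no filter or with only the 2 groups, and BMPR1A at 0.00 without Control 3 and Scrambled 2. With single libraries left out, values against Scrambled ran from -0.05 to 0.07 for BMP1, -0.22 to 0.21 for BMP6, -0.09 to 0.05 for GDF11 and -0.10 to 0.00 for BMPR1A. Against Control they ran from -0.10 to 0.40 for BMP2, -0.38 to 0.05 for BMP6, -0.13 to 0.02 for GDF11 and -0.05 to 0.33 for NOG. For Scrambled against Control they ran from -0.04 to 0.13 for BMP1, -0.20 to 0.05 for BMPR2 and -0.53 to 0.09 for NOG. The cause was not tested. GDF5 could be tested only with no filter or DESeq2, and NOG was not tested with the 1 CPM filter. BMP2, BMP6, NOG and GDF5, near 1 CPM or under it, are limited by depth.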
